A study of Homo sapiens with 4 samples.

Results

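The replication-dependent histone genes encode the core histones H2A, H2B, H3 and H4 and the linker histone H1 that package newly made DNA. They were taken as the protein-coding genes of RefSeq (GRCh38) named H2AC, H2BC, H3C or H4C with a number, or H1-1 to H1-6. The choice used gene names alone and no measured value. It gave 69 of 20037 protein-coding genes on chromosomes 1 to 22, X and Y: 6 H1, 17 H2A, 18 H2B, 13 H3 and 15 H4 genes. Of these, 55 lay in a run of 2168 kb on chromosome 6 (25726063 to 27893891) and 11 in a run of 105 kb on chromosome 1 (149782689 to 149887965). A pair, H2AC25 and H2BC26, lay further along chromosome 1, and H4C16 lay alone on chromosome 12.

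Binding was profiled by CUT&Tag in 22RV1, an established human prostate cancer cell line kept in medium with serum. There were 4 libraries, 1 per group: cells given PD0332991 (palbociclib), an inhibitor of the kinases CDK4 and CDK6, with its own control, and cells given an siRNA against RB with its own control. The antibody target, the dose and the duration of either treatment are not given in the sources used here. The protocol, although headed CUT&Tag, speaks of formaldehyde, sonication and an input. With 1 library per group no difference has a replicate check, intervals cover counting error only, and a difference between 2 libraries is not shown to be a difference between conditions.

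Levels are given in FPM, the fragments piled up at a summit per 1000000 treatment fragments of the library, with a 95% Poisson interval. Values given as a series of 4 follow the order inhibitor control, inhibitor, siRNA control, RB siRNA. The recovered totals were 2458790, 1909366, 3479641 and 2423265 fragments, so that 1 fragment was worth 0.407, 0.524, 0.287 and 0.413 FPM. Each deposited interval lists only its highest point, and the intervals tile the genome with median widths of 189, 557, 180 and 718 kb. A lower peak in the same interval is not listed, so a gene without a summit has an upper limit, not a level of 0. Of the 7 prostate markers examined, 1 (SLC45A3, 2.30 FPM in the siRNA control) had a summit at its end, and of 13 markers of blood, endothelial, liver and fibroblast cells none had. The lists hold no measure of RB, so the knockdown was not checked.

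Histone genes of this class are short, lack introns in their canonical form and are transcribed in S phase. Their transcription is driven at the histone locus body by NPAT, a substrate of cyclin E and CDK2, and their mRNAs end in a stem loop bound by SLBP in place of a poly(A) tail. CDK4/6 activity phosphorylates RB and so acts upstream of entry into S phase. Many H2A and H2B genes stand head to head and share 1 short stretch of DNA as promoter, which classically holds TATA boxes, CCAAT boxes and the octamer bound by the POU factor OCT1 (POU2F1).

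The 7 stretches below are shown because a summit was listed in or beside each of them. A summit was also listed 111 bp inside H2AC16 in the siRNA control, but its stretch is not among them. The first 4 are the complete stretch between the starts of an H2A gene and the H2B gene facing away from it, and the last 3 are the 250 bases upstream of a gene without such a partner. They are from RefSeq on GRCh38.p14, read 5′ to 3′ on the strand of the named gene and ending at the base before its start. Capitals mark matches on either strand, of which the gene strand spells the motif or its reverse complement, to the TATA box TATAAA, the CCAAT box CCAAT, the octamer ATTTGCAT and the ETS core CCGGAAG. Also searched were the exact E2F strings TTTGGCGC and TTTCCCGC, which these 7 sequences do not hold. Other forms of an E2F site were not searched, so these sequences are not shown to lack one. The H2AC11 stretch lies at chr6:27132796-27133042 (plus strand, partner H2BC11), H2AC6 at chr6:26123927-26124171 (plus, H2BC4), H2AC13 at chr6:27807930-27808172 (plus, H2BC13) and H2AC8 at chr6:26216689-26216920 (plus, H2BC8). H4C4 lies at chr6:26189113-26189362 (minus), H4C14 at chr1:149832407-149832656 (plus) and H2BC3 at chr6:26043714-26043963 (minus).
H2AC11: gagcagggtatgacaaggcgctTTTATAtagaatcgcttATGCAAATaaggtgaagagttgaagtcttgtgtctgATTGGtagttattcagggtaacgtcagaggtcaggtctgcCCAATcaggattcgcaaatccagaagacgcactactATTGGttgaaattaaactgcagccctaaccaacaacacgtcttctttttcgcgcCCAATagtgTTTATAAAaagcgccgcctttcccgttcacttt
H2AC6: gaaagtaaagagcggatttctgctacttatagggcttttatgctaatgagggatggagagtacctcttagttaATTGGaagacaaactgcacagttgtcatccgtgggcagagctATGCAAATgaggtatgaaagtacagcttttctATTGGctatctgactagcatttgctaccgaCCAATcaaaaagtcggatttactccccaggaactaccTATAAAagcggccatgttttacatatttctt
H2AC13: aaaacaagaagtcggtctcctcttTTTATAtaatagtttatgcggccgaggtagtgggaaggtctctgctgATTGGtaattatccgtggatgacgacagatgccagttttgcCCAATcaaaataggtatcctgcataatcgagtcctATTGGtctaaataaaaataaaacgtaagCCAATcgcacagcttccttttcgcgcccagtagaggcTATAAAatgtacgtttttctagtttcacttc
H2AC8: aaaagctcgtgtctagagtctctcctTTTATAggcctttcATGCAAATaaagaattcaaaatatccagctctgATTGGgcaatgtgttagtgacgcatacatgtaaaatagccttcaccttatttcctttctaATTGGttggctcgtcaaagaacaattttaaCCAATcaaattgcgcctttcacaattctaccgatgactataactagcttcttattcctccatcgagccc
H4C4: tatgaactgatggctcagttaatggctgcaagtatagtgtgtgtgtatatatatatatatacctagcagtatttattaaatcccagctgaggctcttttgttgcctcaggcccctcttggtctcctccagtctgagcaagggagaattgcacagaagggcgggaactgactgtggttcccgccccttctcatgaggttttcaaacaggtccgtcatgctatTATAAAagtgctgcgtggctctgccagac
H4C14: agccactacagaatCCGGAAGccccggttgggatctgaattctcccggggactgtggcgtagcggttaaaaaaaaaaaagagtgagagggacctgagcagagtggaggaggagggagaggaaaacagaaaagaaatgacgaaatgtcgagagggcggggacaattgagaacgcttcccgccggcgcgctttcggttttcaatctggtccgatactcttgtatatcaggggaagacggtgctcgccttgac
H2BC3: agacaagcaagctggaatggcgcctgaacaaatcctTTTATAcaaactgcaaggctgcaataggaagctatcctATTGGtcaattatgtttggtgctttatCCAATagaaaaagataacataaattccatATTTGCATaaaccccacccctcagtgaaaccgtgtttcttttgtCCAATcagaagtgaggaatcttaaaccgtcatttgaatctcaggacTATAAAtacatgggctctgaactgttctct
The H2AC11 stretch, whose summit was listed in all 4 libraries, held 4 CCAAT boxes, 1 octamer and 3 TATA box matches, of which the pair nearest H2AC11 overlap each other. H2AC6, H2AC13 and H2AC8 held 3, 4 and 3 CCAAT boxes, with 1 octamer each in H2AC6 and H2AC8. The TATA box on the gene strand began 31 bases before the start in H2AC11, H2AC6 and H2AC13, and 29 and 30 bases before it in H4C4 and H2BC3. H4C14 held none of these elements and 1 ETS core, 236 bases before its start.

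Across the 64 members matched to the RefSeq table, taking the 250 bases before the first start listed for each gene, these elements were common and differed between families. A TATA box was found in 65.6% of histone promoters against 9.23% of 15843 protein-coding promoters of the same 250 bases, a CCAAT box in 84.4% against 34.5%, and the octamer in 40.6% against 1.65%. The octamer was found in 14 of 18 H2B, 11 of 16 H2A and 1 of 11 H3 promoters, and in none of the 6 H1 or 13 H4 promoters. H3C4 and H2AC7 have the same listed start, so 1 promoter counts in both the H3 and the H2A family. The 11 head-to-head H2A and H2B pairs have starts 193 to 247 bp apart, so an element between them can count for both genes. The octamers printed above for H2AC11, H2AC6 and H2AC8 were on the strand opposite to the H2A gene. CCAAT boxes were found in every H1, H2A, H2B and H3 promoter and in 3 of 13 H4 promoters. The ETS core is of interest because the study's title names the factor ETS1. It was found in 3 of 64 (4.69%, against 11.8% of protein-coding promoters), all 3 of them H4 genes (H4C9, H4C14 and H4C15). The promoters of H4C14 and H4C15 are identical, so these are not 3 distinct sequences. For the 4 members with several listed starts, any start could be counted instead, which adds the ETS core of H3C6 (4 of 64, 6.25%, against 13.98%) and changes no other count but that of the TATA box (43 of 64). Either of the exact E2F strings was found in 1 of 64 (1.56%, against 2.59%), an H4 gene, and other forms of the site were not searched. A match describes the letters and is not evidence of binding.

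In all 4 libraries the highest summit listed inside the chromosome 6 run lay between H2AC11 and H2BC11, a head-to-head pair of an H2A and an H2B gene. The summits lay at hg38 positions 27132805, 27132905, 27132893 and 27132804, within 101 bp of each other and all inside the 247 bases printed above. The level was 18.3 (13.3 to 24.5), 12.0 (7.64 to 18.1), 12.6 (9.19 to 17.0) and 13.6 (9.37 to 19.1) FPM. The inhibitor control was highest, and all 4 counting intervals overlap. Under the inhibitor this was the single summit of an interval of 1419 kb that covered 36 protein-coding genes, 21 of them histone genes, so no position in that interval exceeded it. It was also the only summit listed inside the run in that library. The other interval there had its summit outside the run, with 25.1 FPM, as did the last interval after RB siRNA, with 103 FPM. Whether an unlisted site of the run under those intervals was higher is not known.

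The other recurrent site was on chromosome 1, between the 3′ end of H2AC18 and the start of H3C14, both on the minus strand. The summit lay at 149841952, 149841919 and 149841997 in the inhibitor control, inhibitor and siRNA control libraries. It was 221 to 299 bp beyond the end of H2AC18 and 711 to 789 bp upstream of H3C14, so it was not at the promoter of either gene, and no sequence of the table covers it. The level was 31.3 (24.7 to 39.1), 28.3 (21.2 to 36.9) and 17.2 (13.2 to 22.2) FPM there, the highest listed at any member in those libraries. After RB siRNA the highest point of the interval over the whole run was instead at H4C14, 244 bp inside the gene, with 21.0 FPM (15.7 to 27.7), which limits the H2AC18 and H3C14 site to at most 21.0 there.

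These chromosome 1 genes have near copies in the same run. The 300-base promoter of H4C14 was identical to that of H4C15 at 300 positions, H2AC18 matched H2AC19 at 299 and H3C14 matched H3C15 at 296. The last 2 pairs matched over the whole of their overlap once shifted by 1 and 4 bases. Fragments from such stretches cannot be told apart by sequence. The summits themselves lie outside these stretches, so whether the sequence under them is also duplicated was not tested. On chromosome 6, H4C11 and H4C12 matched at 295 of 300 positions without a shift, and neither had a summit. H2AC11 and H2BC11 were in none of the near-identical promoter pairs found.

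**Figure D1:**
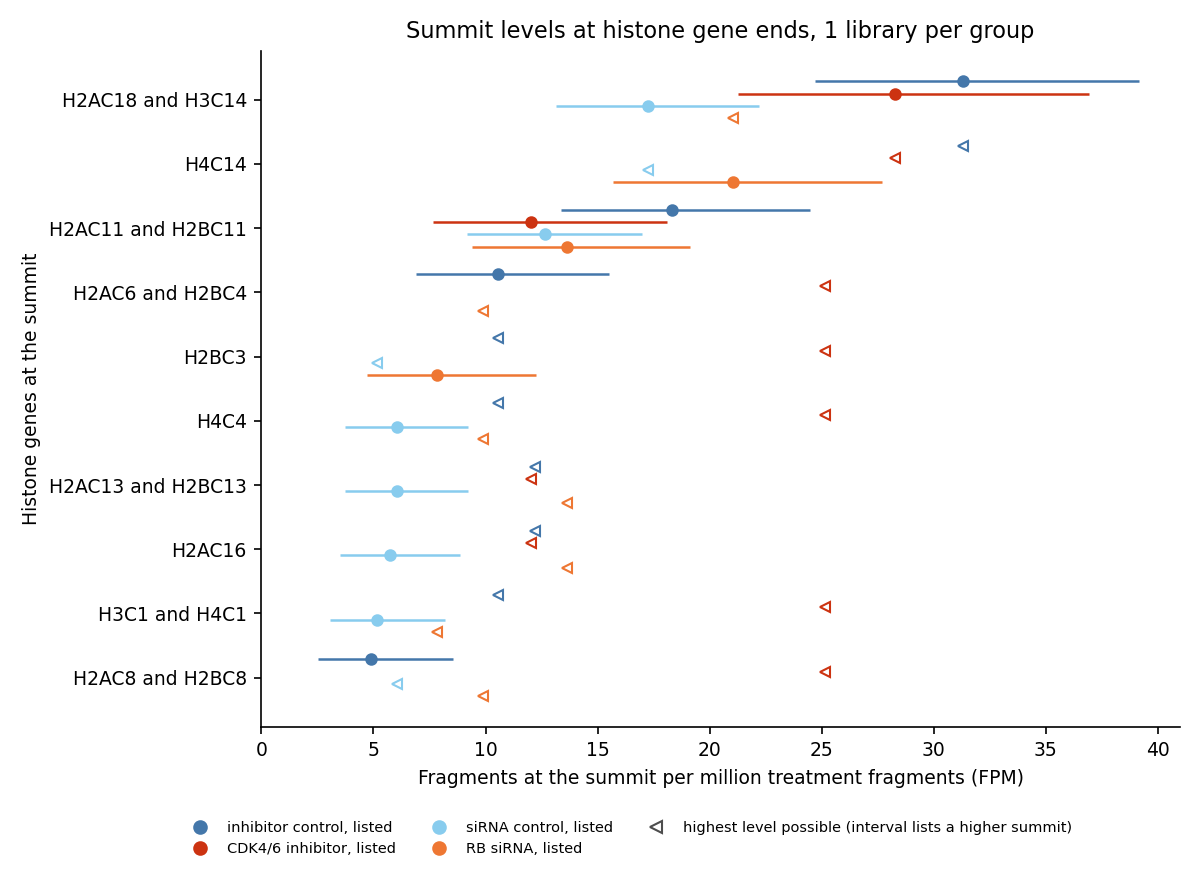
Level at each of the 10 histone sites in FPM (horizontal axis) by library (colour); filled points are listed summits with their 95% Poisson interval, open triangles the highest level possible where an interval lists a higher summit elsewhere. H2AC18 and H3C14 reach 31.3 FPM in the inhibitor control, and H2AC11 and H2BC11 are the only site listed in all 4 libraries.

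The remaining 8 sites were each listed in 1 library, mostly within 300 bp of the start of an H2A, H2B or H4 gene. In the control library of the inhibitor experiment the stretch between H2AC6 and H2BC4 had 10.6 FPM (6.91 to 15.5), and H2AC8, with H2BC8 upstream of it, had 4.88 (2.52 to 8.53). In the siRNA control H4C4 and the pair H2AC13 and H2BC13 each had 6.04 FPM (3.74 to 9.23), and H2AC16 had 5.75 (3.51 to 8.88). The site 41 bp outside H4C1, which also lies within reach of H3C1, had 5.17 (3.07 to 8.18) there. After RB siRNA H2BC3, which encodes an H2B, had 7.84 (4.72 to 12.2) at a point 5 bp inside its start, and H4C14 is given above. These levels rest on 12 to 26 fragments except at H4C14 with 51. They were nevertheless higher than most listed summits of their library, from 65.3% of listed summits below H2BC3 to 87.2% below H2AC6 and H2BC4. Among gene-end summits alone that share was smaller at each site, from 46.9% at H2AC8 and H2BC8 to 82.9% at H4C14. It was 50.3% at H2BC3, so the lowest of these sites were ordinary for gene ends. In the authors' lists the −log10 q was 1.07 for the inhibitor control summit at H2AC18 and H3C14 and 0 for every other summit listed at a histone gene. Those others all had the most common −log10 p of their library (2.61, 3.19, 2.63 and 3.24). Their folds over background ran from 1.06 at H2BC3 after RB siRNA to 1.63 at H2AC11 and H2BC11 in the inhibitor control. Being listed is thus not in itself a call of enrichment.

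Being listed in 1 library is not evidence of absence in the others. Of the 40 combinations of site and library, 15 were listed, 24 lay in an interval whose summit was higher or elsewhere, and 1 (H2AC6 and H2BC4 in the siRNA control) lay in a gap between intervals. Of 14 pairs of libraries in which a site was listed in 1 and only limited in the other, the limit lay above the listed level in 12. In the other 2, H4C14 had 21.0 FPM after RB siRNA against at most 17.2 in the siRNA control, and H2BC3 had 7.84 against at most 5.17. Neither passed counting error relative to the median shift of that comparison, with log2 ratios of at least 0.29 (-0.28 to 0.85) and 0.60 (-0.41 to 1.61) against a shift of 0.45. In none of the 14 was the limited library lower beyond counting error. The 12 with a limit above the listed level could not have shown this, so only the other 2 bear on it.

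In all, 16 of 69 members had a summit within 1000 bp of an end in any library: 6 of 17 H2A, 5 of 18 H2B, 2 of 13 H3, 3 of 15 H4 and 0 of 6 H1 genes. The share of all protein-coding genes with a summit in any library is not given here, so these pooled counts have no background beside them. By library the counts were 8 of 69 in the inhibitor control (11.6%, exact binomial 95% interval 5.14 to 21.6), against 16.8% of all protein-coding genes, and 4 of 69 under the inhibitor (5.80%, 1.60 to 14.2, against 7.73%). They were 10 of 69 in the siRNA control (14.5%, 7.17 to 25.0, against 17.3%) and 4 of 69 after RB siRNA (5.80%, 1.60 to 14.2, against 6.63%). In each library the share of members lay near or below the background, and the background share lies inside the interval of the members' share. These intervals treat members as independent, but the counts came from only 4, 2, 6 and 3 distinct summits. They are therefore not an exact measure of counting error, and the comparison with the background is descriptive. Since members stand close together and an interval lists 1 summit, at most a few of them can be listed at once, and these counts do not measure how many are bound. The lower counts in both treated libraries go with wider intervals and with lower counts over all genes, and the part of interval width in the result was not tested.

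Most summits lay within 300 bp of a gene start, but members are short, so such a summit can be nearer to the 3′ end. At H4C14 it was 244 bp from the start and 151 bp from the 3′ end. Of the 15 listed summits, 11 lay within 300 bp of the start of a member, and the others were the 3 between H2AC18 and H3C14 and the 1 beside H4C1, whose strand was not available in the sequence table. Counted by pairs of gene and summit, the start lay within 300 bp for 5 of 8, 2 of 4, 5 of 9 and 4 of 4 histone pairs, against 71.2%, 72.6%, 73.8% and 73.2% of pairs over all protein-coding genes. The summit was nearer to the start than to the 3′ end in 7 of 8, 3 of 4, 7 of 9 and 3 of 4 histone pairs. Over all protein-coding genes this held for 94.8%, 96.3%, 94.8% and 96.8% of pairs. Of the 11 head-to-head pairs of an H2A and an H2B gene, whose starts stand 193 to 247 bp apart, 4 had a summit in at least 1 library. This count too has no pooled share of other genes beside it. For H2AC11 with H2BC11 and for H2AC6 with H2BC4 the summit was in the shared stretch, and for H2AC13 and H2AC8 it lay 172 and 206 bp inside the H2A gene.

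**Figure D2:**
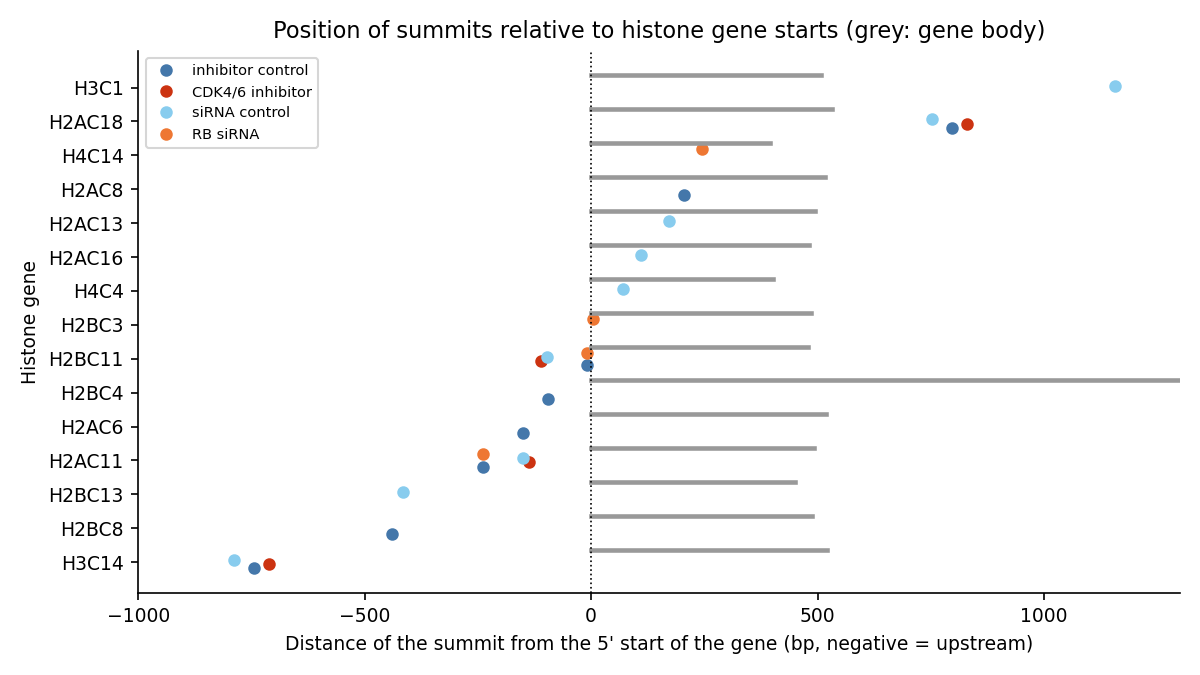
Distance in bp of each listed summit from the 5′ start of the histone gene (horizontal axis, negative values upstream) for each gene (vertical axis), with 1 point per library and grey bars for the gene bodies (that of H2BC4 runs past the axis); H4C1, without a strand, is not drawn. H2AC11 and H2BC11 summits lie 138 to 239 and 9 to 110 bp upstream, while those at H2AC18 lie 753 to 831 bp downstream of its start, beyond the gene.

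Of the 19 intervals over at least 5 members, counted across the 4 libraries, 15 had their summit at a member's end: 4 of 5, 2 of 3, 6 of 7 and 3 of 4 in the order of libraries above. The sites of H2AC11 with H2BC11 and of H2AC18 with H3C14 supplied 4 and 3 of these 15. The 1000 bp windows around members' ends make up 5.28% of the chromosome 6 run and 21.7% of the chromosome 1 run. Counting the end of any protein-coding gene, the summit lay at one in 4 of 5, 3 of 3, 6 of 7 and 3 of 4 of the histone intervals, against 68.5%, 66.1%, 68.7% and 66.0% of all intervals over at least 5 protein-coding genes. With so few intervals, the histone counts are not set apart from these shares. Histone genes made up 5 of 5 protein-coding genes of the inhibitor control interval at H2AC11 and 11 of 42 of the RB siRNA interval at H4C14.

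The chromosome 6 run was covered by 10, 2, 10 and 4 intervals. Of the intervals over at least 5 members, 4 had their summit away from any member. In the inhibitor control an interval of 799 kb over 16 members had its summit inside PRSS16, a thymus serine protease gene, with 12.2 FPM. Under the inhibitor an interval of 2209 kb over 34 members had its summit at C6orf62, outside the run, with 25.1 FPM. In the libraries of the siRNA experiment, control first, the interval over 9 and 22 members had its summit 255 and 195 bp from the leucine tRNA gene TRL-CAG1-7, with 8.62 and 9.90 FPM. The same site had 11.4 FPM in the inhibitor control, in an interval without members. After RB siRNA the last interval of the run, 5810 kb wide and over 3 members, had its summit at PHF1 and KIFC1, outside the run, with 103 FPM. The other summits away from members lay in intervals over at most 2 members. Genes outside the rule with a gene-end summit inside the run were ABT1 (2.85 FPM, inhibitor control), ZNF322 and ZNF184 (2.01 and 1.44, siRNA control).

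**Figure D3:**
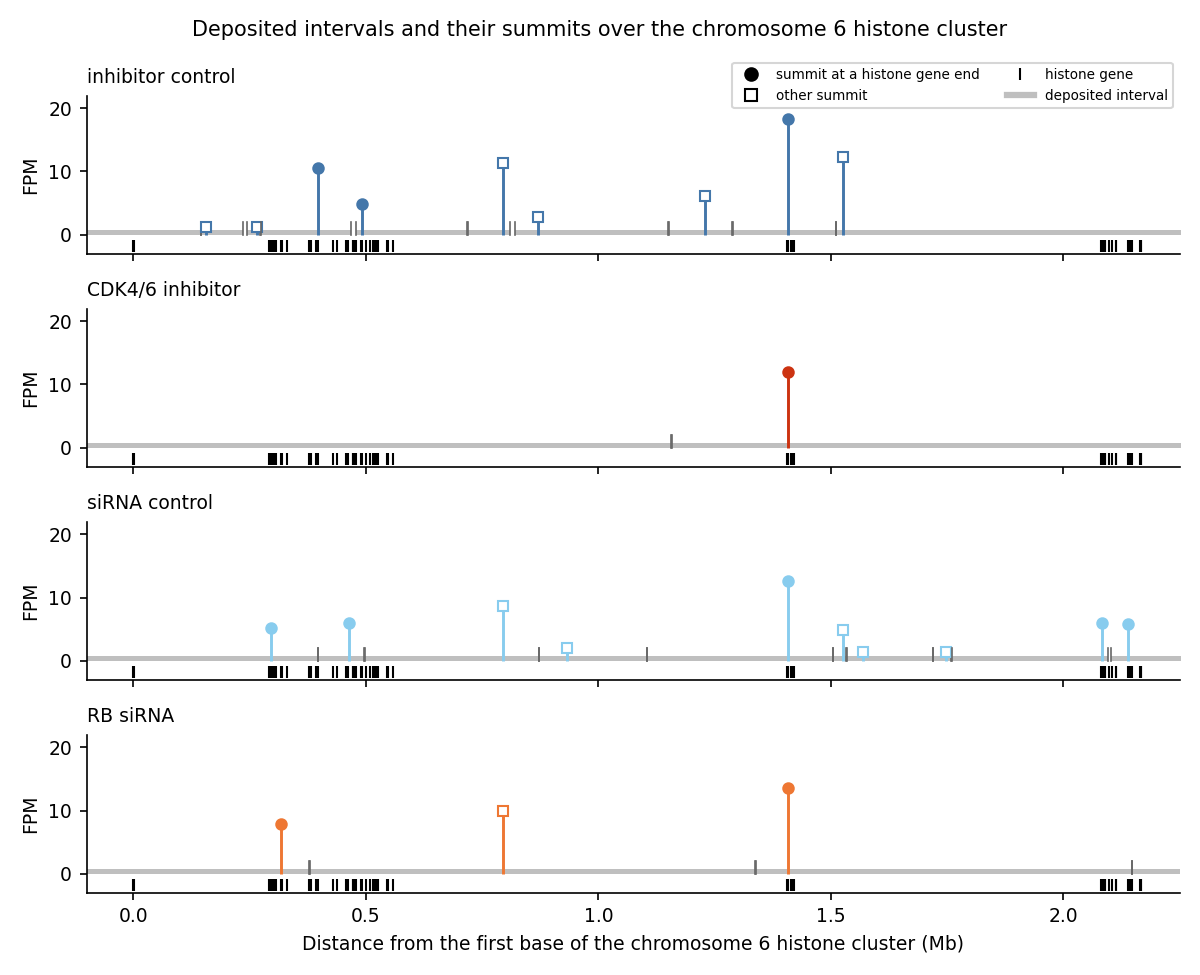
Deposited intervals (grey, with their ends as ticks) and their summits in FPM over the 2168 kb chromosome 6 run, by distance in Mb from its first base, with 1 panel per library and histone genes as black marks. The summit at H2AC11 and H2BC11, near 1.4 Mb, is present in all 4 panels, and the open square at 0.8 Mb in the panels of both controls and RB siRNA is the site beside TRL-CAG1-7. Summits outside the run are not drawn.

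Outside the runs, no member had a summit of its own. H2AC25 and H2BC26 lay in intervals whose summit was at RNF187, a ubiquitin ligase gene, with 54.5, 34.8 and 45.0 FPM in the control, siRNA control and RB siRNA libraries, and inside WNT3A with 122 FPM under the inhibitor. H4C16 was limited to at most 2.85 and 2.01 FPM in the controls, with higher limits in both treated libraries. Over all members, 55, 65, 58 and 64 lay in an interval with its summit elsewhere, with median limits of 10.6, 25.1, 6.04 and 9.90 FPM. A further 6, 0, 1 and 1 lay in gaps: H2BC21, H2AC20, H2AC21, H3C4, H2AC7 and H2BC7 in the inhibitor control, H4C11 in the siRNA control and H4C13 after RB siRNA.

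Under the CDK4/6 inhibitor, both histone sites shared with its control had lower FPM than in the control, 1 of them beyond counting error relative to the median shift. The site of H2AC11 and H2BC11 had 12.0 FPM (23 fragments) against 18.3 (45 fragments), a log2 ratio of -0.60 (95% counting interval -1.40 to 0.15). This interval includes 0 and ends just below the median shift of 0.19 over the 887 summits shared by the pair, so the call rests on the centring. The site of H2AC18 and H3C14 had 28.3 FPM against 31.3, a log2 ratio of -0.15 (-0.68 to 0.37), within counting error. Of all 887 shared summits 17% lay beyond counting error, 9.13% above and 7.89% below the shift, and 4.85% had a lower ratio than H2AC11 and H2BC11. The count of 1 of 2 is too small to set apart from that background.

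After RB siRNA, 1 histone site could be compared, and it did not differ beyond counting error. H2AC11 and H2BC11 had 13.6 FPM (33 fragments) against 12.6 (44 fragments) in the siRNA control, a log2 ratio of 0.11 (-0.59 to 0.79). This lay above 0 in FPM but below the median shift of 0.45 over 749 shared summits, of which 13.4% were beyond counting error (7.61% above the shift, 5.74% below). The interval allows a level from 0.59 lower to 0.79 higher on the log2 scale, so similar levels are not shown.

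Between the control libraries of the 2 experiments, both recurrent sites were within counting error of the general shift. H2AC18 and H3C14 had 31.3 FPM against 17.2, inhibitor control over siRNA control, a log2 ratio of 0.86 (0.36 to 1.37), and H2AC11 and H2BC11 had 18.3 against 12.6, a ratio of 0.53 (-0.10 to 1.17). The median shift over 1191 shared summits was 0.59, with 20.3% beyond counting error (11.9% above, 8.4% below), so the ratio at H2AC11 and H2BC11 was positive in FPM and -0.06 from the shift. The ratio of -0.60 under the inhibitor at H2AC11 and H2BC11 uses the same inhibitor control library. That library held the highest level of the 4 at this site.

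**Figure D4:**
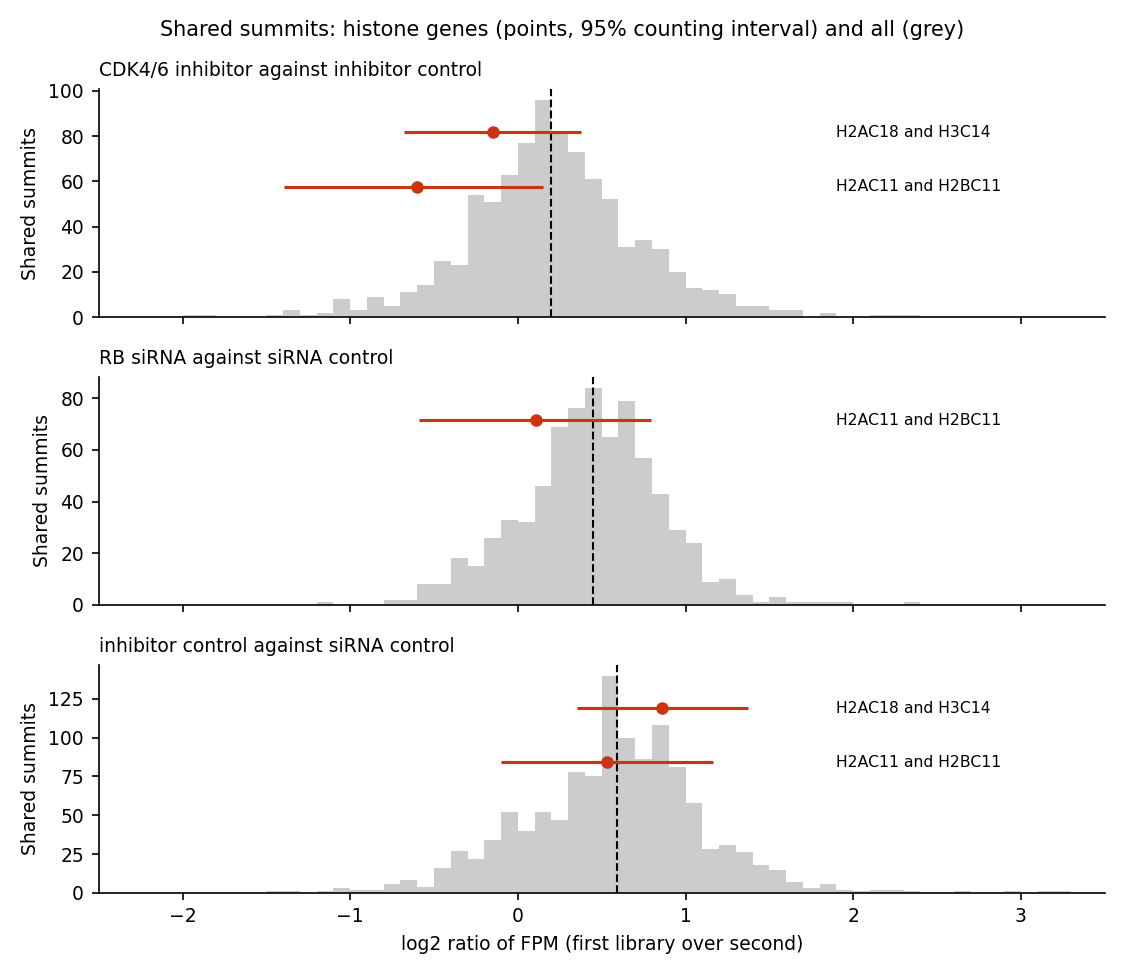
Log2 ratio of FPM (first library over second) at shared summits in 3 comparisons: grey bars count all shared summits, red points are histone sites with their 95% counting interval, and the dashed line is the median shift. The interval of H2AC11 and H2BC11 under the inhibitor ends at 0.15, below the shift of 0.19, and the other histone intervals cross theirs.

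A list of 18 genes covered the transcription of histone genes, its control and the processing of their mRNAs. Of these, 8, 6, 6 and 5 had a gene-end summit, beside 16.8%, 7.73%, 17.3% and 6.63% of all protein-coding genes. No difference of this or the next 2 lists from these shares was tested. YY1, a zinc finger factor, had 13.4, 14.7, 13.8 and 13.6 FPM, and POU2F1, which binds the octamer, had 12.6, 18.9 and 13.6 in the inhibitor control, inhibitor and RB siRNA libraries. NPAT, whose end is shared with the DNA damage kinase gene ATM, had 6.91 and 7.47 in the controls and 7.43 after RB siRNA. CASP8AP2 (FLASH), a histone locus body protein, had 4.47 in the inhibitor control and 9.43 under the inhibitor, a log2 ratio of 1.08 (-0.09 to 2.30), within counting error of the shift. SLBP had 19.5 FPM, in the siRNA control. The cyclin E gene CCNE1 had 9.76 FPM in the control of the inhibitor experiment, and 6.60 with RB siRNA. CSTF2, a subunit of the cleavage stimulation factor, had 2.03, 3.67, 2.30 and 5.78. The histone pre-mRNA endonuclease gene CPSF3, with ITGB1BP1, had 6.28 under the inhibitor. None of the 7 ratios that could be formed for this list lay beyond counting error.

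Histone genes outside the rule, most of them replication-independent variants, had summits at 3, 3, 4 and 1 of 23 members, beside the same shares of all protein-coding genes. In any library 7 had one, a pooled count without a share of all genes beside it. H3-3A, which encodes the variant H3.3, had 11.4, 12.0 and 11.8 FPM in the inhibitor control, inhibitor and siRNA control, and H2AZ1, which encodes H2A.Z, had 9.76, 8.38 and 8.25 in the inhibitor control, inhibitor and RB siRNA libraries. H2AZ2 had 17.9 in the inhibitor control, H3-3B 7.33 under the inhibitor, and H2AX, the variant phosphorylated at DNA breaks, 11.5 in the siRNA control. In that library the linker histone gene H1-10 had 2.87. Histone chaperone genes had summits at 5, 1, 6 and 0 of 20, again beside 16.8%, 7.73%, 17.3% and 6.63% of all protein-coding genes. ASF1B, which hands H3 and H4 to assembly factors, had 19.5 FPM in the inhibitor control, and NAP1L1, a chaperone of H2A and H2B, had 8.13, 8.90 and 5.75 in the inhibitor control, inhibitor and siRNA control. RBBP4 (with ZBTB8OS), the helicase subunit gene MCM2 (with TPRA1) and SSRP1 (with TNKS1BP1) had 8.13, 7.73 and 6.10 in the inhibitor control. SSRP1 also had 4.60 in the siRNA control, and CABIN1, HIRA (with MRPL40) and RBBP7 had 7.47, 4.31 and 3.16 in the siRNA control. No ratio formed for a gene of these lists was beyond counting error.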

How the data were processed

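CUT&Tag of 22RV1 cells gave 4 deposited interval lists, 1 library each. Per the submitters' processing notes, bcl2fastq 2.17, Trimmomatic 0.33, Bowtie2 (version given as 2) and MACS2 2.1.0 were used with hg38, without order or settings. In the deposited lists the score column equals a rounded-down multiple of −log10 p, and the fold column is a ratio of treatment over background, both at the summit. A −log10 q accompanies them in the authors' lists.

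Fold and p were solved for background and treatment fragments (pseudocount 1, Poisson upper tail). The numbers were whole within 0.05 for 99.97% to 100% of summits. Library totals assume a large window of 10000 bp and 2.7 Gb of effective genome. Recovery and ratio intervals were tested on data simulated under the same model. FPM is fragments per 1000000.

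Summits within 1000 bp of either gene end were counted. For 2 libraries, summits were paired as mutual nearest within 250 bp and kept at a geometric mean of at least 5 FPM. A ratio was called beyond counting error when its exact conditional 95% interval excluded the median. Genes were named by rule: every member with a summit, summits over the runs, and the 8 or fewer highest genes of each of 3 lists. The value of 1 such gene is not reported here. Members, lists and tests were chosen with earlier results of these data known. Python 3.11.15, scipy 1.17.1 and pandas 2.3.3 were used.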

Additional observations from a re-analysis of the deposited data

How the results depend on the processing

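No paired analysis was possible because each group holds 1 library. For the same reason no library could be left out of a comparison. With windows of 500 or 2500 bp, a minimum of 5 FPM, or the runs on chromosomes 6 and 1 alone, the number of histone genes with a summit stayed within 1.5 times of the reported one in every library. Counting each summit once gave 4 (inhibitor control), 2 (inhibitor) and 6 (siRNA control), in place of 8, 4 and 10. Requiring −log10 q to reach 2 left 0 histone genes in each of the 4 libraries. The number of shared histone summits beyond counting error kept its value with matching within 100 or 500 bp, no minimum, a minimum of 10 FPM and all contigs. Without centring it was 0 in place of 1 for the inhibitor, so H2AC11 and H2BC11 were then within counting error, and 1 in place of 0 between the controls, where H2AC18 and H3C14 were then higher in the inhibitor control. Subtracting the background changed neither direction nor call of the 5 log2 ratios. Counting any listed start, chosen after seeing the data, kept the 6 motif counts within 1.5 times. Depth limits the result: the site of H2AC11 and H2BC11 rests on 23 to 45 fragments.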
